A study of Mus musculus with 4 samples.

Results

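The elastic fibre genes and lysyl oxidases described here are elastin (Eln), the fibrillins Fbn1 and Fbn2, the fibulins Fbln1, Fbln2, Fbln5 and Efemp2, and the lysyl oxidases Lox, Loxl1 and Loxl2. They were taken by gene symbol from a table of read counts, in which all 10 were found among 44788 genes. RNA was sequenced from mouse bone marrow stromal cells of strain C57BL/6J at passage 2, in which both copies of Setd2 carried loxP sites (Setd2 fl/fl). The 2 knockout (KO) libraries came from cells given a lentivirus with Cre recombinase, and the 2 control (WT) libraries from floxed cells given a lentivirus with GFP. All cells had been under puromycin at 2 µg/ml for 4 days. Setd2 encodes a histone methyltransferase that trimethylates lysine 36 of H3, and the comparison asks how its loss changes expression in these cells. WT is thus a floxed culture with GFP and not a wild-type genotype, and effects of Cre itself cannot be told apart from those of losing Setd2. Nothing in the labels says that libraries of a group are separate cultures or animals, and p-values therefore reflect the spread between libraries, which may be only technical.

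Elastic fibres are assembled outside the cell in steps that need each of these families. Fibrillins form microfibrils, which serve as a scaffold. Fibulins bring tropoelastin, the soluble elastin monomer, and the cross-linking enzymes together on that scaffold. Lysyl oxidases are secreted copper enzymes that oxidise lysines of tropoelastin and of collagens, so that the chains become cross-linked. Stromal and bone-forming cells use fibrillins and lysyl oxidases in collagen-rich matrix as well, where elastin can be scarce.

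Lysyl oxidases share a copper site, and the gene whose call stood out among them, Loxl1, is shown over that site beside Loxl2, Loxl3 and Loxl4, while the stretch of Lox is not shown here. The stretches are coding sequence of the GENCODE M21 transcripts on GRCm38, written 5′ to 3′ on the coding strand. Capitals mark the codons of the alternating histidines that hold the copper ion.
Loxl1: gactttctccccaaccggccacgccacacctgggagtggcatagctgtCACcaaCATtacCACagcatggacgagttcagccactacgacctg
Loxl2: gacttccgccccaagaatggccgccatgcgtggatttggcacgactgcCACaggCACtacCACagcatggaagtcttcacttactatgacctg
Loxl3: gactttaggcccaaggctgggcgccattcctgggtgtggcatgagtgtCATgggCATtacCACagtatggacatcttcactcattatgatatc
Loxl4: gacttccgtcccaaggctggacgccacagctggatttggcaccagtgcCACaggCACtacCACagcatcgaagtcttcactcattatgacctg
The Loxl1 stretch lies on the minus strand of chromosome 9 between 58293690 and 58294411, across exons 3 and 4 of 7. That of Loxl2 lies on the plus strand of chromosome 14 between 69682286 and 69689067, across exons 10 and 11 of 14. Loxl3 and Loxl4, which are shown for comparison, have theirs on the plus strand of chromosome 6 (83049965 to 83050155) and on the minus strand of chromosome 19 (42598777 to 42599929). Over these 93 bases Loxl1 was 67.7% identical to Loxl2, and the longest run that both share had 14 bases. Among the 6 pairs of these 4 sequences identity lay between 66.7% and 86.0%.

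Whether counts of one gene can hold reads of another was checked with windows of 40 bases from the longest coding transcript of each gene. For Loxl1, Lox, Fbln1, Fbln2 and Fbln5, 0% of windows recurred in transcripts of other genes. The share was 20.1% for Fbn1, 5.78% for Efemp2, 3.02% for Eln and 0.836% for Fbn2, in each case most with a gene on the opposite strand that overlaps it. Loxl2 had the highest share of the 10 genes, 46.5% of all windows and 91.7% of those within its coding sequence. Its windows recurred in transcripts of 902 other genes, among them Fbn2, Ctsl and Mrps26. How many windows each of these shared is not given here. The longest coding transcript of Fbn2 had no window in common with Loxl2, so that match lies in another Fbn2 transcript. The transcript that shared most with Loxl2 was that of Gm21451, a pseudogene in GENCODE M21 on the same chromosome. The deposited counts of Gm21451 were 12 and 8 in KO libraries and 5 and 5 in WT libraries, so few reads were assigned to the copy, but how reads that match both were treated is not given in the sources used here, and the count of Loxl2 is uncertain. Exons of other genes also cover 20.1% of the exon bases of Fbn1 (Gm9913), 5.7% of those of Loxl2, 4.57% of those of Efemp2 (Mus81) and 3.3% of those of Eln (Gm30003), for the most part on the opposite strand. The library kit keeps no strand, so these counts cannot be split.

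The targeted gene was checked first. Setd2 had 551 and 468 counts in KO libraries, against 1400 and 1250 counts in WT libraries, a log2 fold change of -1.60 (standard error 0.08, edgeR adjusted p = 3.65e-15; adjusted p = 0.124 without WT replicate 2), so each library matched its label. The gene lies on chromosome 9 from 110532597 to 110618633, in the positions of GENCODE M21 on GRCm38 that are used throughout. Library totals lay between 12371994 and 14315903 counts, of which the 10 genes took between 0.732% and 0.812%. WT replicate 2 stood apart. Rn18s-rs5, a gene for 18S ribosomal RNA, held 1.35% and 1.21% of counts in KO libraries, and 2.07% and 7.45% in WT libraries. All 10 stromal markers were abundant enough to test, of which 4 were higher (Col1a1, Col1a2, Thy1 and Ly6a) and 1 lower (Cxcl12) in KO libraries. Summed over a marker list, smooth muscle genes came to 14180 and 14730 CPM (the usual count scaled to library size, here after TMM normalization) in KO libraries and 16850 and 15910 CPM in WT libraries (3 higher and 2 lower of 7), and myeloid genes to 2227 and 2218 CPM in KO libraries and 1892 and 1948 CPM in WT libraries. Most of the myeloid sum was Lyz2. Without it, a step chosen after the values were seen, the other 9 markers came to 542 and 521 CPM in KO libraries and 504 and 539 CPM in WT libraries, and the groups overlapped. Endothelial markers summed to between 7.67 and 9.97 CPM, with Cldn5 at 0 counts, and no adipocyte marker was abundant enough to test. Of 5 osteoblast markers 3 were tested and 2 were higher in KO libraries, Sp7 (0.52, edgeR adjusted p = 0.00655) and Ibsp (1.10, edgeR adjusted p = 0.00994), while Alpl did not pass. The list summed to 54.0 and 59.4 CPM in KO libraries and 48.9 and 45.4 CPM in WT libraries, and its part in the results that follow was not tested. In bulk RNA, fewer cells of a type and less RNA per cell cannot be told apart.

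RNA of Eln, the gene of the protein that gives the fibre its name, was close to 0 in these cells. Eln lies on the minus strand of chromosome 5 between 134702593 and 134747323. It had 2 and 4 counts in KO libraries, against 2 and 1 counts in WT libraries, at or near the floor of 3 counts, which corresponds to between 0.207 and 0.256 CPM. The exact 95% Poisson interval of the highest count, 4 in KO replicate 2, reached 10.2 counts or 0.708 CPM. The intervals of all 4 libraries overlapped, and Eln was too low to test. A difference between KO and WT cells was not detectable at this depth, and counting intervals cover counting error only.

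The other genes ranged from low to very abundant. Genes can be compared only per length, and their levels are given as RPKM, the CPM divided by the transcript length in kilobases. Lox, the main cross-linking enzyme of collagen and elastin, led with 663 ± 15.2 RPKM in KO libraries and 739 ± 36.6 RPKM in WT libraries (mean ± SD, n = 2 each, as for all levels that follow). Fbln2, a fibulin found where elastin meets the microfibrils, came next with 330.5 ± 4.46 RPKM in KO libraries and 312 RPKM in WT libraries (313 and 311.5). Loxl2 had 175 ± 3.68 RPKM in KO libraries and 188 ± 0.0707 RPKM in WT libraries.

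Efemp2 and Loxl1 were close to each other in this order. Efemp2 had 117 ± 5.80 RPKM in KO libraries and 114 ± 2.40 RPKM in WT libraries, and Loxl1 had 106 ± 6.51 RPKM in KO libraries and 86.8 ± 3.30 RPKM in WT libraries. The 2 genes changed places when all annotated exon bases were taken as the length, while no other neighbours did. Fbn1 followed with 64.0 ± 1.78 RPKM in KO libraries and 73.0 ± 2.50 RPKM in WT libraries, and Fbln5 with 49.1 ± 1.93 RPKM in KO libraries and 54.3 ± 1.66 RPKM in WT libraries. Fbln1 had 8.82 ± 0.0212 RPKM in KO libraries and 8.45 ± 0.190 RPKM in WT libraries, and Fbn2 stood lowest of the tested genes with 0.507 ± 0.0704 RPKM in KO libraries and 0.798 ± 0.0603 RPKM in WT libraries. The order was the same in both groups. By CPM, which is not per length, Lox ranked 18 of 14483 tested genes.

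**Figure D1:**
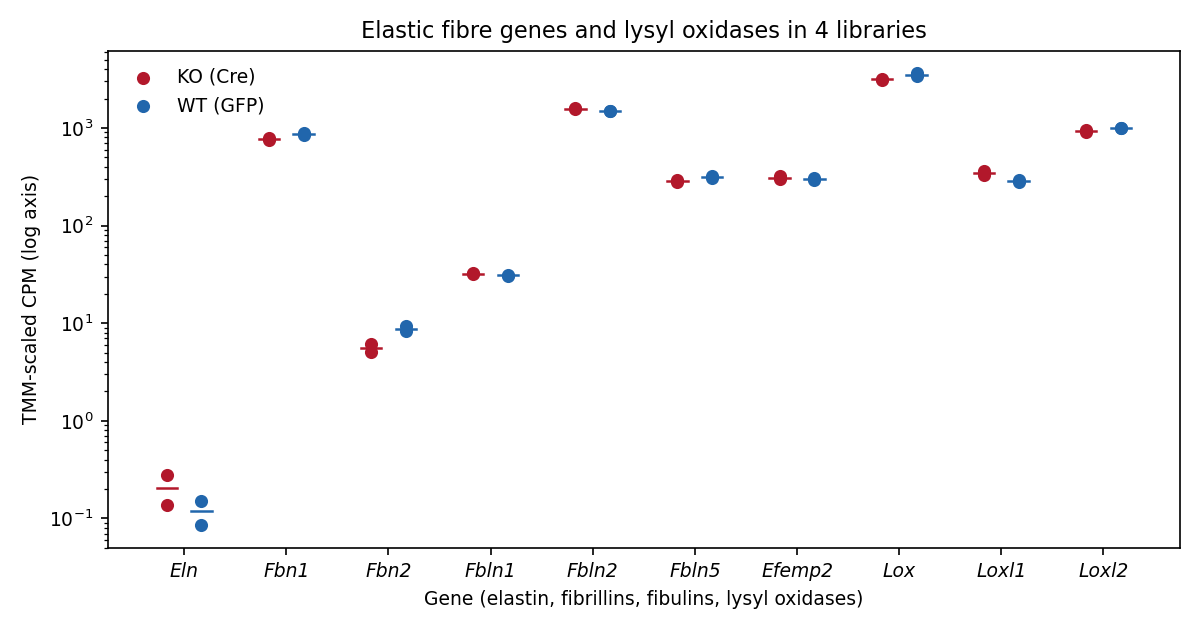
Each point is the level of a gene in a library, in CPM after TMM scaling on a log axis, with KO libraries in red left of WT libraries in blue and a bar at each group's mean (n = 2 each). Eln lies at 0.0852 to 0.276 CPM, while Lox lies between 3093 and 3628 CPM.

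Of the 10 genes 9 were abundant enough to test, and 2 of them differed between KO and WT libraries at an adjusted p of 0.05: Loxl1 rose and Fbn2 fell. That is 22.2% of the 9, where the same test called 6.97% of all 14483 genes, 3.74% as higher and 3.22% as lower in KO. Among the 7 members with a mean of at least 100 CPM the test called 1, against 14.9% of all tested genes at that level. The members were chosen with earlier results of these data known, so these shares cannot decide whether members changed more often than others. The remaining 7 of the 9 did not pass. An unadjusted p under 0.05 in the edgeR test was found for 5 of the 9, and for 3031 of all 14483 tested genes. The median log2 fold change of the 9 genes was -0.10, against -0.0045 over all tested genes, and 4 values lay above 0 and 5 below. Groups did not overlap in 8 of the 9 genes, 3 with KO above and 5 with KO below, a pattern that 50.0% of all tested genes showed.

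**Figure D2:**
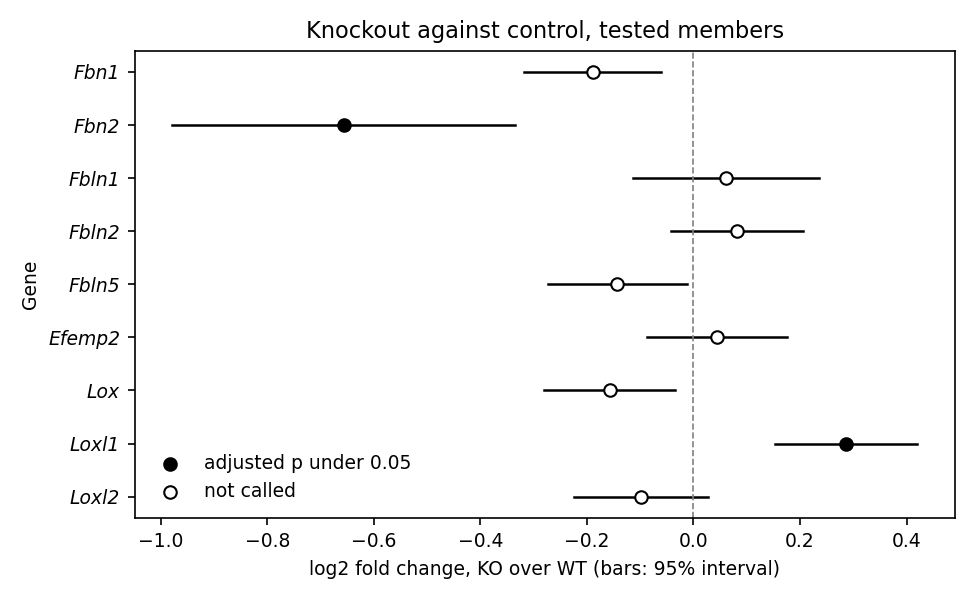
Log2 fold changes of KO over WT with 95% intervals from edgeR's quasi-likelihood fit for the 9 tested genes, with filled points for an adjusted p under 0.05. Loxl1 (0.29) and Fbn2 (-0.66) are filled, and the intervals of Fbn1, Fbln5 and Lox also lie below 0 although these genes did not pass after adjustment.

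Fibrillin-1 is the main microfibril protein of adult tissue, and fibrillin-2 is best known from developing tissue. Fbn1 lies on the minus strand of chromosome 2 from 125300594 to 125507993. It had 11298 and 10875 counts in KO libraries, against 11210 and 10516 counts in WT libraries. Scaled to library size this was 782 and 752 CPM in KO libraries and 853 and 895.5 CPM in WT libraries, so both KO libraries were lower. The log2 fold change was -0.19 (standard error 0.06, 95% interval -0.32 to -0.06), and edgeR's adjusted p of 0.0641 did not pass. Limma-voom (adjusted p = 0.0304) and robust dispersion estimates (adjusted p = 0.0317) did call it, in a range of 0.0304 to 0.547 over 13 alternatives.

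Fbn2 lies on the minus strand of chromosome 18 from 58008623 to 58210487. Its counts were low: 73 and 89 in KO libraries, against 122 and 98 in WT libraries. Scaled, these were 5.05 and 6.15 CPM in KO libraries and 9.29 and 8.35 CPM in WT libraries, and the groups did not overlap. The fall was -0.66 on the log2 scale (standard error 0.16, 95% interval -0.98 to -0.33, edgeR adjusted p = 0.00838), or 0.634-fold. The call was lost in DESeq2 (adjusted p = 0.184), without a low-count filter (adjusted p = 0.211), and without KO replicate 1 (-0.52, adjusted p = 0.130), WT replicate 1 (-0.57, adjusted p = 0.306) or WT replicate 2 (-0.73, adjusted p = 0.293), with adjusted p between 0.00173 and 0.306 over 13 alternatives.

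Within a library the share of fibrillin counts that came from Fbn2 does not depend on scaling. It was 0.642% (95% exact binomial interval 0.504 to 0.807%) and 0.812% (0.652 to 0.998%) in KO libraries, against 1.08% (0.895 to 1.28%) and 0.923% (0.750 to 1.12%) in WT libraries. Both KO shares lay below both WT shares. Of the 4 pairs of a KO and a WT library, only the intervals of KO replicate 1 and WT replicate 1 did not overlap. An exact two-sided permutation test gave p = 0.333 for this share, which is the smallest that 2 against 2 libraries allow.

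Among the fibulins no gene passed the test. Fibulin-5 and fibulin-4, the product of Efemp2, bind tropoelastin and lysyl oxidases, and mice that lack either have defective elastic fibres. Fbln5, on chromosome 12 from 101746565 to 101819055, had 279 and 294 CPM in KO libraries and 323 and 309.5 CPM in WT libraries. Both KO libraries were lower, with a log2 fold change of -0.14 (95% interval -0.27 to -0.01, edgeR adjusted p = 0.189). Efemp2, on chromosome 19 from 5473954 to 5482517, had 298 and 320 CPM in KO libraries and 295 and 304 CPM in WT libraries, so the groups overlapped. Its log2 fold change was 0.04, with a 95% interval of -0.09 to 0.18.

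Fbln2, on chromosome 6 from 91212455 to 91272540, had 1567 and 1597 CPM in KO libraries and 1499 and 1491 CPM in WT libraries, with a log2 fold change of 0.08 (95% interval -0.04 to 0.21, edgeR adjusted p = 0.480). Fbln1 encodes a fibulin of basement membranes and of the elastin core. On chromosome 15 from 85205949 to 85286535, it had 32.3 and 32.2 CPM in KO libraries and 30.4 and 31.4 CPM in WT libraries (log2 fold change 0.06, 95% interval -0.11 to 0.24, edgeR adjusted p = 0.740). In both genes KO libraries were slightly higher without overlap, and the intervals leave room for changes of either sign. Within the counts of these 4 fibulins, Fbln5 took 12.8% and 13.1% in KO libraries and 15.1% and 14.5% in WT libraries, while Fbln2 took 72.0% and 71.2% in KO libraries and 69.8% and 69.8% in WT libraries. The exact two-sided permutation p was 0.333 for either share, again the smallest possible.

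Of the lysyl oxidases only Loxl1 passed the test. Loxl1, whose enzyme binds fibulin-5 and is needed in mice to renew elastic fibres in adult tissue, lies on the minus strand of chromosome 9 from 58287738 to 58313186. It had 4822 and 5269 counts in KO libraries, against 3658 and 3450 counts in WT libraries. Scaled, these were 334 and 364 CPM in KO libraries and 278 and 294 CPM in WT libraries, and every KO library was above every WT library. The rise was 0.29 on the log2 scale (standard error 0.07, 95% interval 0.15 to 0.42, edgeR adjusted p = 0.00542), or 1.22-fold.

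Under every alternative run Loxl1 stayed above 0, but its call did not always hold. DESeq2 gave 0.29 (adjusted p = 0.00294), and scaling by library size alone gave 0.32 (adjusted p = 0.0189). The call was lost without a low-count filter (adjusted p = 0.187), without KO replicate 2 (0.22, adjusted p = 0.288), without WT replicate 1 (0.25, adjusted p = 0.296) and without WT replicate 2 (0.33, adjusted p = 0.286), with adjusted p between 0.000353 and 0.296 over 13 alternatives. Without WT replicate 1 edgeR called 12 genes of the whole table, and without WT replicate 2 it called 0, with 2197 at an unadjusted p under 0.05.

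Lox and Loxl2 were lower in KO libraries without passing the test. Lox, on the minus strand of chromosome 18 from 52516067 to 52529867, had 46167 and 44748 counts in KO libraries and 47667 and 39713 counts in WT libraries. Scaled, these were 3195 and 3093 CPM in KO libraries and 3628 and 3382 CPM in WT libraries (log2 fold change -0.16, 95% interval -0.28 to -0.03, edgeR adjusted p = 0.117). Loxl2, which cross-links basement membrane collagen, lies on the plus strand of chromosome 14 from 69609068 to 69695834. It had 945.5 and 918 CPM in KO libraries and 997 and 998 CPM in WT libraries (log2 fold change -0.10, 95% interval -0.22 to 0.03, edgeR adjusted p = 0.387), with the reservation on its near-identical copy given above.

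Taking all 5 lysyl oxidase genes, with Loxl3 and Loxl4 added, the split of the family's counts could be read within each library. These are shares of counts without correction for transcript length, and the Loxl2 count among them is uncertain. Loxl1 took 6.47% (95% exact binomial interval 6.29 to 6.65%) and 7.19% (7.01 to 7.38%) in KO libraries, against 4.97% (4.82 to 5.13%) and 5.43% (5.26 to 5.61%) in WT libraries. The intervals of KO libraries lay above those of WT libraries. They also did not overlap between the libraries of a group, so the spread between libraries exceeded counting error. Lox took 61.9% and 61.1% in KO libraries and 64.8% and 62.6% in WT libraries, and Loxl2 took 18.3% and 18.1% in KO libraries and 17.8% and 18.5% in WT libraries. The exact two-sided permutation p of the Loxl1 share was 0.333, the smallest possible here.

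**Figure D3:**
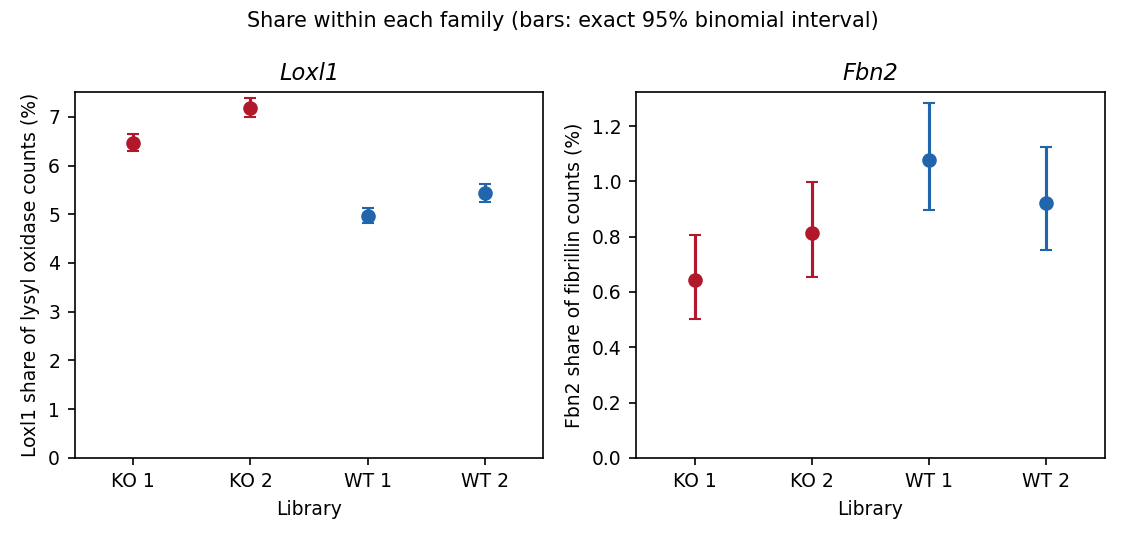
Share of Loxl1 in the counts of Lox and Loxl1 to Loxl4 (left) and of Fbn2 in the counts of both fibrillins (right), in percent of counts, with KO libraries in red left of WT libraries in blue and exact 95% binomial intervals. Loxl1 stands at 6.47 and 7.19% in KO libraries and at 4.97 and 5.43% in WT libraries.

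**Figure D4:**
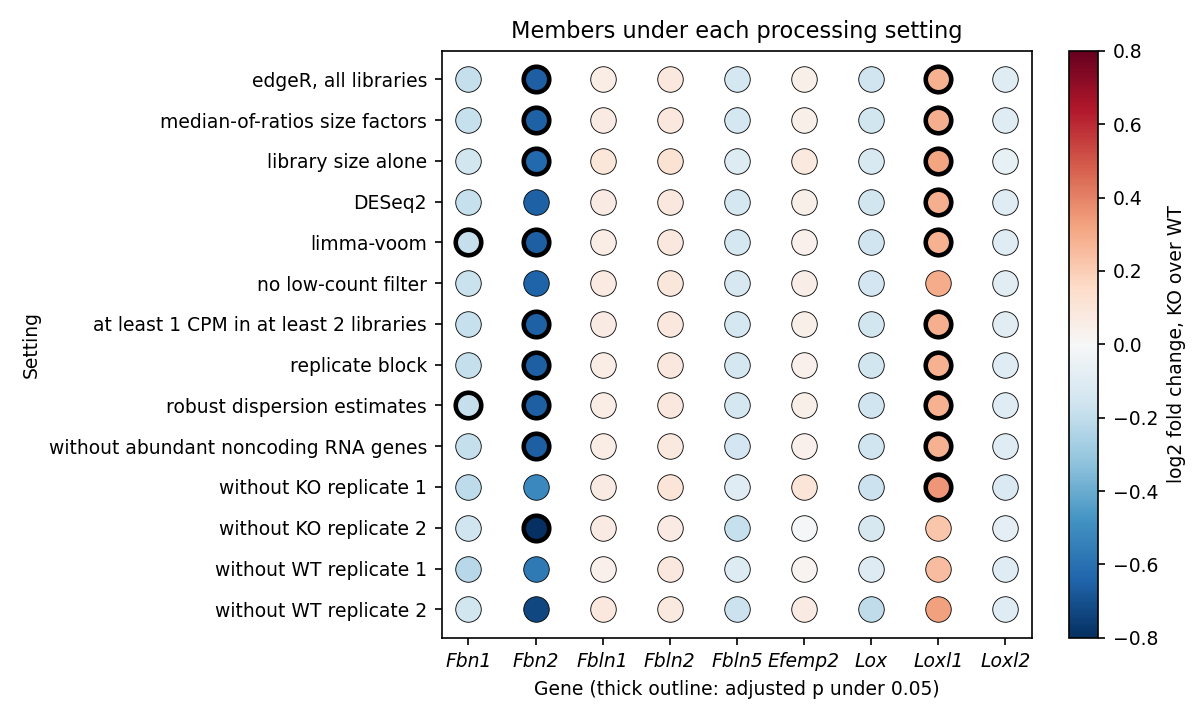
Log2 fold change of KO over WT (colour) of each tested gene under the edgeR fit on all libraries and 13 alternative settings, with a thick outline where the adjusted p is under 0.05. Only Efemp2 changes sign, without KO replicate 2 (-0.0071), and no gene is called without WT replicate 1 or WT replicate 2.

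The genes with the pattern closest to that of Loxl1 were found by the distance between centred log2 CPM values over the 4 libraries, among 10891 genes with a mean of at least 5 CPM. They were Pfkl, a glycolytic phosphofructokinase gene (distance 0.0182), Pcdhgb4 (0.0221) and Mrps26 (0.0275), where the median gene stood at a distance of 0.336. As the closest genes were picked, small distances and fold changes near that of Loxl1 follow from the choice. Pfkl passed the test as higher in KO (0.28, edgeR adjusted p = 0.00708). Pcdhgb4 (0.30, edgeR adjusted p = 0.0920) and Mrps26 (0.27, edgeR adjusted p = 0.0737) did not pass. Other genes of its cluster cover 38.3% of the exon bases of Pcdhgb4, and its count is uncertain.

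Other genes tied to elastic fibres, from microfibril partners to elastin-degrading enzymes, were taken in 5 lists with 71 entries. They gave 56 tested genes, of which 10 were higher and 6 lower in KO libraries. This is 28.6%, against 6.97% of all tested genes, with a median log2 fold change of 0.10. The share differed by list. Calls numbered 6 of 14 among elastin-degrading enzymes and inhibitors, and 3 of 11 among receptors. They numbered 4 of 11 in processing, copper supply and chaperones, 3 of 15 among microfibril partners, and 0 of 5 among further fibulins and lysyl oxidases. Among the 30 partner genes with a mean of at least 100 CPM, 36.7% were called, against 14.9% of all tested genes at that level. The lists were chosen with earlier results of these data known, so these shares cannot decide whether partner genes changed more often than others. Among 15 microfibril partners none rose and 3 fell, with a list median of 0.06. Ltbp2, a fibrillin-binding protein of the latent TGF-beta binding family, had 214 and 219.5 CPM in KO libraries and 296 and 312.5 CPM in WT libraries (log2 fold change -0.49, edgeR adjusted p = 4.48e-06). Adamtsl3 had 20.9 and 18.8 CPM in KO libraries and 31.7 and 31.9 CPM in WT libraries (-0.68, edgeR adjusted p = 1.15e-05). Adamtsl4, which binds fibrillin-1 and is needed for the fibres that hold the lens, had 91.2 and 91.7 CPM in KO libraries and 116 and 113 CPM in WT libraries (-0.33, edgeR adjusted p = 0.00134). The microfibril-associated glycoprotein genes Mfap2 (0.25, edgeR adjusted p = 0.311) and Mfap5 (0.26, edgeR adjusted p = 0.273) did not pass.

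None of the 5 tested further fibulins and lysyl oxidases passed. Loxl3 had 649 CPM in KO libraries and 673 CPM in WT libraries (log2 fold change -0.05, edgeR adjusted p = 0.705), and Loxl4 stood at -0.17 (edgeR adjusted p = 0.229). Among 11 genes of processing, copper supply and chaperones, 3 rose and 1 fell. Bmp1, the protease that frees active lysyl oxidase from its precursor, had 437 and 466 CPM in KO libraries and 391 and 384 CPM in WT libraries (0.22, edgeR adjusted p = 0.0305). Fkbp10, a chaperone of collagen and tropoelastin in the endoplasmic reticulum, rose by 0.21 (edgeR adjusted p = 0.0437). Pcolce2, an enhancer of procollagen processing, rose by 0.31 (edgeR adjusted p = 0.0474). Tll1, a protease related to Bmp1, fell (-0.40, edgeR adjusted p = 0.00206). Of 13 alternatives, 7 lost the call of Bmp1, 7 that of Fkbp10, 9 that of Pcolce2 and 4 that of Tll1. The copper pump gene Atp7a stood at -0.05 (edgeR adjusted p = 0.775). With library size alone as the scale (adjusted p = 0.0337), or with the replicate number as a block (adjusted p = 0.00433), Tll1 was the 1 gene of this list that passed.

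Of 11 receptor genes 3 rose and none fell. Itga5, a subunit of the fibronectin receptor that also binds fibrillin-1, had 1285 and 1376 CPM in KO libraries and 944 and 1055 CPM in WT libraries (0.41, edgeR adjusted p = 0.000109). Lgals3, a galactoside-binding lectin, rose by 0.26 (edgeR adjusted p = 0.00895), and Glb1, whose splice form is an elastin-binding protein, by 0.25 (edgeR adjusted p = 0.0431). The call of Glb1 was lost in 8 of 13 alternatives, among them DESeq2 (adjusted p = 0.276), library size alone (adjusted p = 0.0895) and the replicate block (adjusted p = 0.0620). Among 14 elastin-degrading enzymes and inhibitors 4 rose and 2 fell. Mmp12, macrophage elastase, had 179 and 176 CPM in KO libraries and 101 and 106 CPM in WT libraries (0.78, edgeR adjusted p = 7.79e-10). The lysosomal proteases Ctsd (0.42) and Ctsl (0.29) and the cysteine protease inhibitor Cst3 (0.32) rose, while the matrix-bound inhibitor Timp3 (-0.78) and the gelatinase Mmp9 (-0.46) fell. Mmp9 did not pass when any library was left out or in DESeq2, and stood at -0.14 without WT replicate 2 and at -0.73 without WT replicate 1.

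Macrophages also express several of these risen genes. Of 8 tested myeloid markers 2 were higher (Cd68 and Lyz2) and 1 lower (Emr1) in KO libraries and 5 did not pass, with S100a9 at 0 counts in every library. Their part in the rises of Mmp12, Lgals3, Ctsd and Ctsl was not tested. Counts are uncertain where other genes cover exon bases, which holds for 34.4% of those of Ctsd, 26.8% of Ctsl, 21.3% of Timp3, 9.34% of Ltbp2, 6.58% of Fkbp10 and 5.49% of Glb1. The lists of processing, receptors and degradation had 1, 1 and 4 calls without KO replicate 1, and 0, 1 and 3 calls without KO replicate 2. In edgeR 0 genes of these 5 lists passed without WT replicate 1 or without WT replicate 2, and without a low-count filter Mmp12 and Timp3 were the 2 that did.

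**Figure D5:**
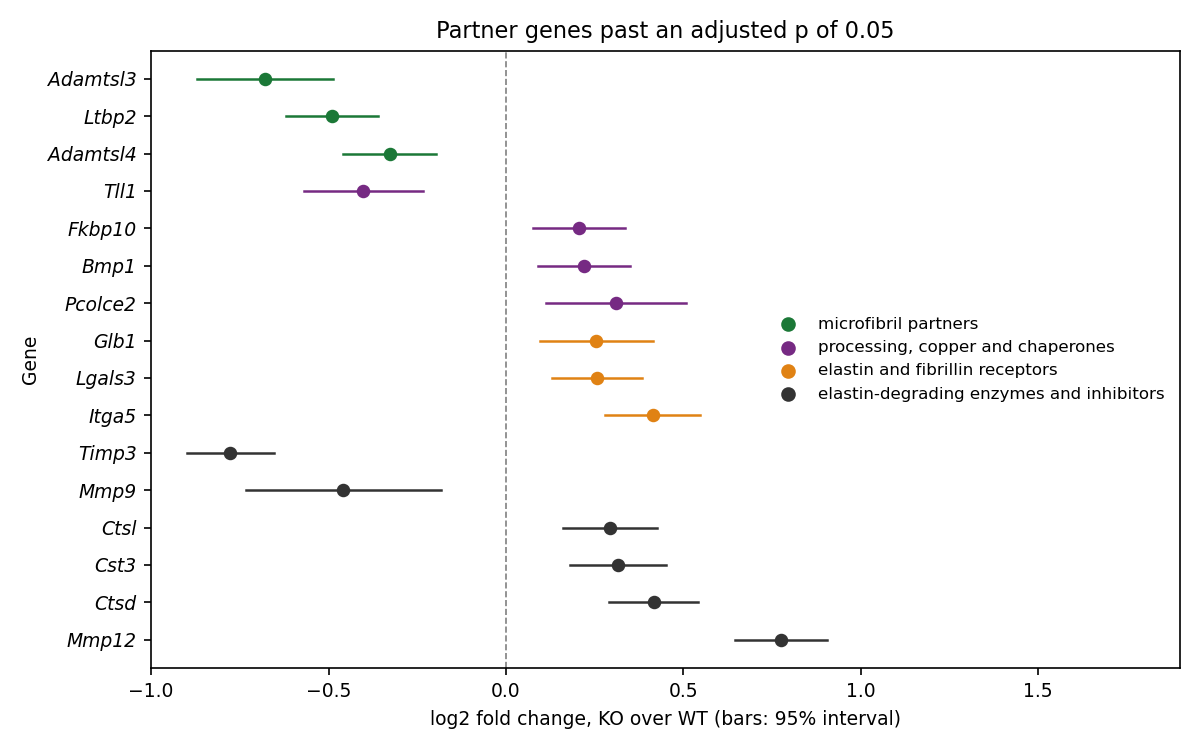
Log2 fold changes of KO over WT with 95% intervals from edgeR's fit for the 16 genes of the partner lists with an adjusted p under 0.05, coloured by list. Mmp12 (0.78) lies highest, and Timp3 (-0.78) and Adamtsl3 (-0.68) lie lowest.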

How the data were processed

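RNA was sequenced with Illumina TruSeq libraries from 1 µg of RNA, per the labels' protocols, and, per the submitters' processing notes, HISAT2 and GRCm38 were used. Which program counted the reads, with which annotation and strand setting, is not given in the sources used here. The authors deposited whole-number read counts per gene, without normalization. Groups and replicate numbers came from the titles. EdgeR 4.0.16 (R 4.3.3) kept genes with filterByExpr (minimum count 10, minimum total 15), scaled libraries by TMM (factors 0.951 to 1.03) and tested KO over WT by the quasi-likelihood F-test with Benjamini-Hochberg adjustment over 14483 genes. CPM use TMM-scaled library sizes. Standard errors are the log2 fold change divided by the root of F. The fit was also run on simulated counts with known changes, drawn with the same spread for all genes and both groups. That run cannot show how the fit behaves with the spread of these libraries. RPKM divide CPM by the longest coding transcript of GENCODE M21. Alternatives were run with DESeq2 1.42.0, limma-voom 3.58.1 and the settings of the closing section. Named genes are all members, Setd2, Rn18s-rs5, up to 6 called genes per partner list (mean of 1 CPM or more), and 3 genes most like the called member with the smallest p. Other partner and marker genes were named after their values were seen. The members and lists were chosen with earlier results of these data known. Between the KO libraries the typical gene varied more than sampling noise alone would give, with a chi-square ratio to noise of 1.78 (median over genes). For the WT pair this ratio was 3.85. The WT libraries also differed in TMM factor (1.03 and 0.951) and in the share of Rn18s-rs5 (2.07% and 7.45%). The part of these composition differences in the WT ratio was not tested. The ratios therefore cannot show that WT replicates spread more than KO replicates.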

Additional observations from a re-analysis of the deposited data

How the results depend on the processing

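The 2 calls among the members became 1 in DESeq2 and 0 without a low-count filter, and numbered 0 to 1 when any library was left out. Limma-voom and robust dispersion estimates each added Fbn1. Over all genes 1009 calls became 530 with library size alone (347 higher, 183 lower), 376 in DESeq2, 30 without a low-count filter, 477 at an adjusted p of 0.01, and 0 to 516 with a library left out. Loxl1 lost its call without a low-count filter at 0.30 on the log2 scale and ranged from 0.22 to 0.35 with a library left out. Fbn2 lost its call in DESeq2 (-0.65) and without a low-count filter (-0.65) and ranged from -0.80 to -0.52. Setd2 ranged from -1.71 to -1.48, and lost its call without WT replicate 2 (adjusted p = 0.124). Efemp2 reversed to -0.0071 without KO replicate 2, in a range up to 0.10 with a library left out. The cause of these losses was not tested, beyond the fewer libraries or the added low-count genes that define the settings. Where 1 library remains, its spread is taken from the other group. Replicate numbers are shared between groups, but nothing says that they pair libraries, and same-numbered libraries did not deviate together (correlation -0.04 across genes). With the replicate number as a block, 829 genes passed, with 2 members, Loxl1 (0.29, adjusted p = 0.0108) and Fbn2 (-0.66, adjusted p = 0.0136), and the list of processing, copper supply and chaperones kept 1 of 4 calls. Scaling by library size alone moved the median gene by 0.03. Depth limits Eln most.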
